A study of Homo sapiens with 2 samples.

Results

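The genes of FAS and TRAIL death receptor signaling were followed in RNA-seq of ACHN, a long-used human line grown from a renal cell carcinoma. They were chosen by gene name and comprise 10 of the 12014 genes listed in the deposited tables. The receptors are FAS, TNFRSF10A, TNFRSF10B, TNFRSF10D and TNFRSF1A, and TNFRSF6B encodes a secreted decoy. FADD, CASP8, CFLAR and RIPK1 encode the proteins that assemble inside the cell once a receptor is engaged. Cells were infected with a lentivirus for an shRNA against KIAA1429 (shKIAA1429) or for a control shRNA (shNC), stable lines were selected with puromycin, and 1 library was sequenced per group. If the sequenced cells were these stable lines, both groups carry an integrated shRNA vector and went through the same selection. Whether they were, and which KIAA1429 shRNA was sequenced, is not given in the sources used here. The sample labels call the shKIAA1429 cells a knockout, whereas the study's methods describe a knockdown. The question was which genes differ when KIAA1429, a scaffold of the m6A methyltransferase complex, is targeted. With 1 library per group no difference has a replicate check, no error can be given, and no p-value was computed.

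FAS, TNFRSF10A and TNFRSF10B are transmembrane receptors whose death domain recruits the adaptor FADD when FAS ligand or TRAIL binds. FADD brings in the initiator caspase CASP8, which is activated in the complex and cleaves the effector caspases, while CFLAR, a relative of CASP8 without protease activity, limits this step. TNFRSF10D binds TRAIL without a complete death domain, and TNFRSF6B, also named decoy receptor DcR3, holds FAS ligand outside the cell. TNFRSF1A, the receptor for TNF, signals through RIPK1 to NF-κB and can turn to cell death. FAS and TNFRSF10B are textbook targets of p53.

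Values are FPKM, the fragments of a gene divided by its transcript length and by the size of the library, so levels can be set side by side between genes. A change is given on the log2 scale after 1 was added to each FPKM, as the shKIAA1429 value minus the shNC value, which understates the change of low values. Genes with a mean of at least 1 FPKM were kept, 10702 in all, and 10 of the 10 death receptor genes were among them. Over the 10702 genes the median change was 0.06, and 90% of them lay between -0.55 and 0.66. Rescaling each library to the same sum moved the median up by 0.18. With mitochondrial genes left out of that sum, the rescaled median was 0.07. Mitochondrial genes held 42.2% of the summed FPKM with shNC and 34.6% with shKIAA1429. KIAA1429, listed as VIRMA, was at 3.92 FPKM with shNC and at 3.22 FPKM with shKIAA1429. This change of -0.22 lay within the range that held 90% of all genes, so a depletion of the targeted message is hardly visible in these libraries. By RT-qPCR and western blot, the study reports a significant loss of KIAA1429 message and protein in its stable knockdown ACHN cells. Of the renal carcinoma markers, 9 of 9 were listed, with a sum of 1034 FPKM with shNC and 883 FPKM with shKIAA1429. By any amount 4 of them were higher and 5 lower, with changes from -1.14 for LHX1 to 0.68 for PAX8. Of the markers of other cell types, 2 of 5 immune, 0 of 3 endothelial and 2 of 5 fibroblast genes were listed, and PTPRC, the marker of all leukocytes, was not among them. The listed immune markers summed to 7.80 FPKM with shNC and 2.21 FPKM with shKIAA1429, a difference that came mostly from LYZ, the gene of lysozyme (3.93 and 0.154 FPKM). The listed fibroblast markers summed to 1.75 FPKM with shNC and 2.60 FPKM with shKIAA1429. The part of these markers in the results was not tested.

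The TNFRSF6B gene shares its exons with another row of the tables, and the sequences show how. RTEL1-TNFRSF6B is a read-through gene that starts at RTEL1 and runs on through TNFRSF6B. In GENCODE 29 (GRCh38), the 1141 exon bases of TNFRSF6B are all exon bases of RTEL1-TNFRSF6B on the same strand (100%). Its transcript RTEL1-TNFRSF6B-202 enters the first exon of TNFRSF6B-201 at chr20:63696760-63696774, 8 bases before the start codon, and from there 1032 bases to the end are the same in both (90.4% of TNFRSF6B-201). The bases on either side of this joint follow, with the 15 shared bases in capitals and, in lower case, the 15 that tell the transcripts apart (chr20:63696745-63696759 and chr20:63695840-63695854, plus strand).
TNFRSF6B-201: ctctccctgctccagCAAGGACCATGAGGG
RTEL1-TNFRSF6B-202: ctggccagagccccaCAAGGACCATGAGGG
The joint tells TNFRSF6B-201 apart from RTEL1-TNFRSF6B-202 only, since RTEL1-TNFRSF6B-201 holds all 1141 bases. A fragment that lies past the joint fits both rows, and so can a fragment before it. The levels of TNFRSF6B and RTEL1-TNFRSF6B therefore depend on how the authors' software divided such fragments.

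The study's methods give a fold limit of 1.5 on the log2 scale, used with DESeq2 and a limit on P. Only the fold limit was applied here. FAS and TNFRSF6B were the genes of the group past it. The 250 bases before their RefSeq start sites (GRCh38.p14), at the first of 3 listed sites for FAS, are shown because these starts are where the messages of the receptor and of its decoy begin. Capitals mark GGGCGG or its reverse complement, the core of a GC box.
FAS, chr10:88990548-88990797, plus strand: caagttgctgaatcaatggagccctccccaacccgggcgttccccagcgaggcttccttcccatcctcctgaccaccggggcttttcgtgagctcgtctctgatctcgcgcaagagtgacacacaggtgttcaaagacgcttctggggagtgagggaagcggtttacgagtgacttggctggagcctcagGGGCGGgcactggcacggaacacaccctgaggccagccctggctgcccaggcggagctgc
TNFRSF6B, chr20:63696402-63696651, plus strand: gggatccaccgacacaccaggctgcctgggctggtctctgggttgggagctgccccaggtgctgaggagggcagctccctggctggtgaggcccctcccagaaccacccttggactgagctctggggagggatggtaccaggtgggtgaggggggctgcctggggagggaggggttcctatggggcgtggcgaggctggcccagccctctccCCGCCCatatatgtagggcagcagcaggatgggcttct
Each of these windows held 1 GC box, which was found in 42.6% of the 35116 windows of the same length in the RefSeq table. The E-box CACGTG, searched on both strands, had 0 matches in either, against 6.34% of all windows, and TATAAA had 0 matches in either, against 10.7%. Windows were given for 7 of the 10 genes. These counts describe the letters of the windows and were not related to expression.

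FAS was higher and the decoy TNFRSF6B was lower in the shKIAA1429 library, each by more than 1.5 as deposited, although for TNFRSF6B the size depends on its overlap with RTEL1-TNFRSF6B. The TRAIL receptor genes TNFRSF10A and TNFRSF10B were about 1 higher, whereas the intracellular genes differed little. By this limit 1 of 10 genes was higher, against 0.383% of all genes, and 1 of 10 was lower, against 0.252%. With a limit of 1 there were 2 of 10 higher, against 1.61% of all genes, and 1 of 10 lower, against 0.897%. Of the 10 genes, 8 were higher by any amount, beside 57.3% of all genes, and their median change was 0.38 beside 0.06 for all genes. These genes were picked with earlier results known, so the counts describe them and support nothing further. Fewer cells with a transcript and less of it per cell cannot be told apart in bulk RNA.

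**Figure D1:**
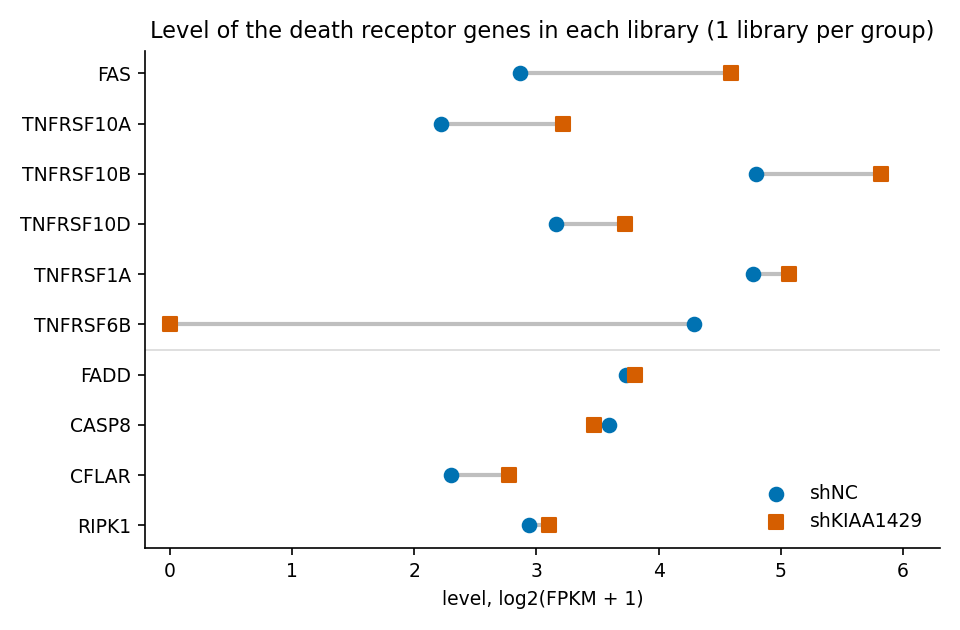
Level of each gene as log2(FPKM + 1) on the horizontal axis, with a circle for the shNC library, a square for the shKIAA1429 library and a grey line between them; receptors and the decoy stand above the thin line and intracellular genes below it. The symbols are far apart for TNFRSF6B (18.6 against 0.00096 FPKM) and FAS (6.29 against 23.1 FPKM) and nearly touch for FADD (12.3 against 13.0 FPKM).

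FAS (ENSG00000026103.21_3) lies on the plus strand of chromosome 10 of GRCh37 from 90750339 to 90775542. FAS stood at 6.29 FPKM in the shNC library and at 23.1 FPKM in the shKIAA1429 library, or 367% of control, a change of 1.72. It held rank 28 from the highest change among the 10702 genes. In the shNC library FAS was eighth of the 10 genes by level, and in the shKIAA1429 library it was the third, behind TNFRSF10B and TNFRSF1A. ACTA2, the gene of smooth muscle actin, lies on the other strand and overlaps FAS by 758 bases on GRCh37. Of the 4253 exon bases of FAS in GENCODE 29, 380 (8.93%) are exon bases of ACTA2. ACTA2 was at 47.1 FPKM with shNC and 76.2 FPKM with shKIAA1429, a change of 0.68. The libraries were made strand-specific, but whether strand was used in counting is not given in the sources used here, so the part of ACTA2 in the FAS value was not tested. The genes next to FAS in rank were GRB2 (3.95 and 15.6 FPKM) and ZNF672 (1.35 and 6.80 FPKM) above it, and PRR5-ARHGAP8 (0.123 and 2.64 FPKM) below it. AC026464.3, which also ranked just below, is listed at 0 with shNC and was at 2.26 FPKM with shKIAA1429. With 2 libraries, likeness to FAS means a similar change and nothing more.

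**Figure D2:**
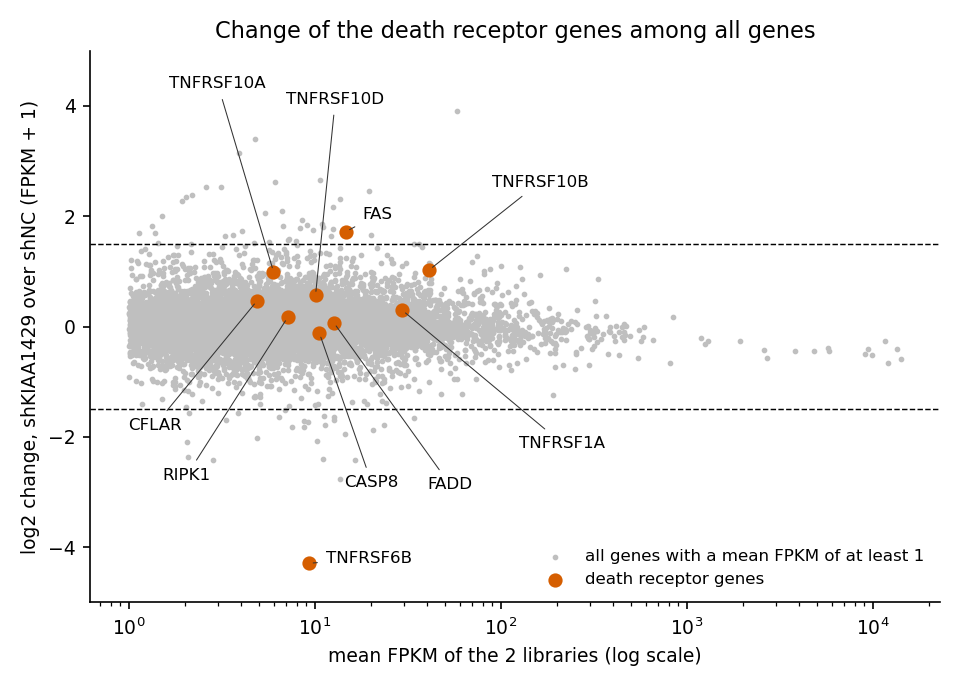
Log2 change of (FPKM + 1), shKIAA1429 over shNC, against the mean FPKM of the libraries on a log axis, with a grey point for each of the 10702 genes, orange points for the 10 death receptor genes and dashed lines at 1.5 and -1.5. FAS lies above the upper line at 1.72, TNFRSF6B is the lowest point at -4.29 with its fragments open to division with RTEL1-TNFRSF6B, and the others lie between the lines.

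The TRAIL receptors lie side by side on chromosome 8 of GRCh37, within 205 kb that also hold TNFRSF10C, a decoy receptor anchored to the membrane by lipid. TNFRSF10B (ENSG00000120889.12_2, also DR5, 22877646 to 22926692, minus strand) was at 26.7 FPKM with shNC and 55.5 FPKM with shKIAA1429, a change of 1.03. It was the most abundant of the 10 genes in both libraries. TNFRSF10A (ENSG00000104689.9_2, also DR4, 23047965 to 23082639, minus strand) was at 3.67 FPKM with shNC and 8.30 FPKM with shKIAA1429, a change of 0.9955. The death-inducing TRAIL receptors were thus both higher by a similar factor, TNFRSF10B at 208% and TNFRSF10A at 226% of control, and they held ranks 162 and 173 from the highest change. TNFRSF10D (ENSG00000173530.5_2, 22993101 to 23021543, minus strand), the truncated decoy, was at 7.93 FPKM with shNC and 12.2 FPKM with shKIAA1429. Its change of 0.56 was smaller than those of TNFRSF10A and TNFRSF10B and within the range that held 90% of all genes. TNFRSF10C was at 0.699 FPKM with shNC and 0.619 FPKM with shKIAA1429, below the minimum of the mean. At so low a level, whether TNFRSF10C shared the difference cannot be told. RHOBTB2, which overlaps TNFRSF10B by 67 bases on the other strand, was at 1.99 FPKM with shNC and 1.85 FPKM with shKIAA1429.

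Together TNFRSF10A, TNFRSF10B and TNFRSF10D summed to 38.3 FPKM with shNC and 76.0 FPKM with shKIAA1429. The share of TNFRSF10B in it was 69.7% in the shNC library and 73.0% in the shKIAA1429 library. The decoy TNFRSF10D made up 20.7% and 16.0%. The ratio of TNFRSF10D to TNFRSF10B, which does not depend on how a library was scaled, was 0.297 with shNC and 0.220 with shKIAA1429. The ratio of TNFRSF10A to TNFRSF10B was 0.137 with shNC and 0.150 with shKIAA1429, so these receptor messages were in nearly the same proportion in both libraries. FAS relative to TNFRSF10B went from 0.235 with shNC to 0.415 with shKIAA1429.

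TNFRSF1A (ENSG00000067182.7_2, chromosome 12 of GRCh37, 6437923 to 6451280, minus strand), the TNF receptor, was at 26.4 FPKM with shNC and 32.6 FPKM with shKIAA1429. Its change was 0.30, at rank 2431 from the highest. Over the 5 membrane receptors, FAS made up 8.86% of the summed FPKM with shNC and 17.5% with shKIAA1429, while TNFRSF1A made up 37.1% and 24.8%. With shNC the levels of TNFRSF10B and TNFRSF1A were nearly equal, and with shKIAA1429 TNFRSF10B stood well above TNFRSF1A.

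TNFRSF6B (ENSG00000243509.4_3, chromosome 20 of GRCh37, 62328021 to 62330037, plus strand) was the third most abundant of the 10 genes with shNC, at 18.6 FPKM. With shKIAA1429 it was listed at 0.00096 FPKM, and its change of -4.29 was the lowest of the 10702 genes. The read-through gene RTEL1-TNFRSF6B (ENSG00000026036.21_3, 62290653 to 62330037) went in the opposite direction, from 0.620 FPKM with shNC to 2.28 FPKM with shKIAA1429, a change of 1.02. RTEL1, a helicase gene that ends 414 bases before TNFRSF6B begins, was at 0.777 FPKM with shNC and 1.14 FPKM with shKIAA1429. As the printed joint shows, fragments from the shared exons can be given to either row. Summed, both rows gave 19.2 FPKM with shNC and 2.28 FPKM with shKIAA1429, 11.9% of the control level, with a change of -2.62. With RTEL1 added it was 20.0 FPKM and 3.43 FPKM, a change of -2.24. The TNFRSF6B row held 96.8% of the sum of both rows with shNC and 0.0420% with shKIAA1429. A sum of FPKM, however, mixes transcripts of unlike length: a fragment given to RTEL1-TNFRSF6B-202, with 4824 bases, adds less FPKM than one given to TNFRSF6B-201, with 1141 bases. FPKM times transcript length, which is proportional to fragments, was therefore summed over both rows. With the length of RTEL1-TNFRSF6B-202 the shKIAA1429 library was at 45.5% of control, a log2 change of -1.14 without the 1 added elsewhere. With RTEL1-TNFRSF6B-201 and RTEL1-TNFRSF6B-203, of 5751 and 5843 bases, it was at 53.0% and 53.7%. This weighted sum was thus lower but not past 1.5. Only 1032 of the 4824 bases of RTEL1-TNFRSF6B-202 and 1141 of the 5751 bases of RTEL1-TNFRSF6B-201 are shared with TNFRSF6B. The weighted sum therefore also counts fragments from other exons of the read-through gene and is not a level of TNFRSF6B alone. The size of the TNFRSF6B difference depends on how fragments were divided and on how the rows are combined. How many of the read-through fragments came from the exons of RTEL1 cannot be told from values per gene.

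**Figure D3:**
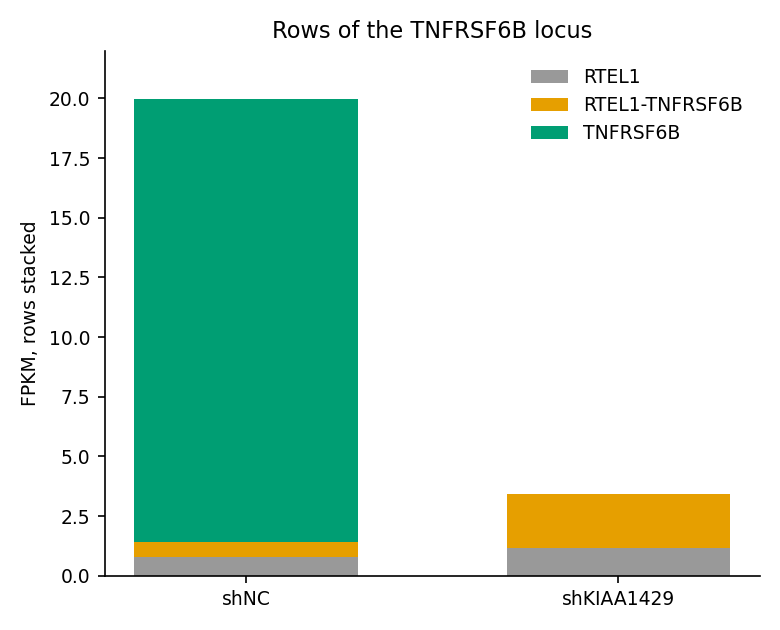
FPKM of RTEL1 (grey), RTEL1-TNFRSF6B (orange) and TNFRSF6B (green), stacked for each library on an axis that starts at 0. The shNC bar reaches 20.0 FPKM and is almost all TNFRSF6B, whereas the shKIAA1429 bar reaches 3.43 FPKM and shows no visible TNFRSF6B.

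By the deposited rows, FAS was below the decoy for its ligand with shNC and above it with shKIAA1429. With 1 added to each level, the ratio of FAS to TNFRSF6B was 0.372 with shNC and 24.0 with shKIAA1429. Without that addition it was 0.339 with shNC and 24029 with shKIAA1429, a value that rests on the 0.00096 FPKM of the TNFRSF6B row. The same limit holds for both ratios, since fragments of TNFRSF6B may stand in the RTEL1-TNFRSF6B row.

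The genes of the intracellular complex had changes between -0.12 and 0.47. FADD (ENSG00000168040.4_2, chromosome 11 of GRCh37, 70049269 to 70053496, plus strand), the adaptor, was at 12.3 FPKM with shNC and 13.0 FPKM with shKIAA1429, a change of 0.07. Its single annotated transcript shares 54.9% of its exon bases with AP000879.1 on the other strand, a gene not analysed here. CASP8 (ENSG00000064012.21_4, chromosome 2 of GRCh37, 202098166 to 202152434, plus strand), the initiator caspase, was at 11.1 FPKM with shNC and 10.1 FPKM with shKIAA1429. Its change of -0.12 became 0.05 when each library was rescaled to the same sum, and -0.13 with mitochondrial genes left out of that sum. RIPK1 (ENSG00000137275.13_2, chromosome 6 of GRCh37, 3064225 to 3115421, plus strand), the kinase that joins TNF receptor signaling to survival or death, was at 6.66 FPKM with shNC and 7.61 FPKM with shKIAA1429, a change of 0.17. The changes of FADD, CASP8 and RIPK1 were within the 0.18 by which rescaling alone moved the median gene.

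CFLAR (ENSG00000003402.19_3, chromosome 2 of GRCh37, 201980827 to 202041410, plus strand), the inhibitor that competes with CASP8 for FADD, was at 3.94 FPKM with shNC and 5.83 FPKM with shKIAA1429, a change of 0.47. CFLAR, CASP10 and CASP8 lie in this order within 172 kb of chromosome 2. CASP10, the initiator caspase related to CASP8, was at 0.518 FPKM with shNC and 1.24 FPKM with shKIAA1429, below the minimum of the mean. The ratio of CFLAR to CASP8 was 0.356 with shNC and 0.578 with shKIAA1429, 1.62 times as high. The ratio of FADD to CASP8 was 1.11 with shNC and 1.29 with shKIAA1429, and that of RIPK1 to CASP8 was 0.602 and 0.755. Among FADD, RIPK1 and CFLAR, CFLAR thus had the largest difference relative to CASP8. Of the 22529 annotated exon bases of CFLAR, 1.98% are shared with AC007283.1 on the same strand. On the other strand, 10.1% are shared with CFLAR-AS1 or IMPDH1P10. The long and short protein forms of CFLAR cannot be told apart in values per gene.

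Around these genes, 43 other genes of the pathway were followed, of which 33 were listed and 30 reached a mean of 1 FPKM. None passed 1.5 or 1 in either direction among these 30 (0 of 30). Of all genes, 0.383% were higher and 0.252% lower by more than 1.5, and 1.61% and 0.897% by more than 1. With 1 added to each FPKM, the 0 of 30 is close to these small shares. The added 1 bears on this count, since CYLD, BIRC3 and CASP9 stayed within 1 at 285%, 256% and 40.2% of control. The other pseudocount was not applied to this list. Of the 30 genes, 20 were higher and 10 lower by any amount, with a median change of 0.25. Of all genes, 57.3% were higher by any amount, with a median of 0.06. Of 6 ligand genes only TNFSF10, the gene of TRAIL, was listed, at 1.47 FPKM with shNC and 2.27 FPKM with shKIAA1429. The gene of FAS ligand, FASLG, was not among the listed genes, each of which reached 0.5 FPKM in at least 1 library. Among the other receptors EDA2R, a receptor for ectodysplasin, was at 1.83 FPKM with shNC and 3.63 FPKM with shKIAA1429, a change of 0.71. TNFRSF21, known as death receptor DR6, was at 2.73 FPKM with shNC and 3.40 FPKM with shKIAA1429.

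The 17 adaptor and ubiquitin genes were all listed and had a median change of 0.19, with 12 higher and 5 lower. CYLD, a deubiquitinase that acts on the TNF receptor complex, was the highest, at 1.16 FPKM with shNC and 3.31 FPKM with shKIAA1429, a change of 0.9943. TRADD, the adaptor of TNFRSF1A, was the lowest, at 8.73 FPKM with shNC and 6.21 FPKM with shKIAA1429, a change of -0.43. Of 10 caspase and effector genes, 9 reached the minimum, with 5 higher and 4 lower and a median of 0.25. CASP6, an effector caspase gene, was the lowest of them, at 7.69 FPKM with shNC and 4.16 FPKM with shKIAA1429, a change of -0.75. This order depends on the added 1. CASP9, with a change of -0.72, was at 1.92 FPKM with shNC and 0.774 FPKM with shKIAA1429. That is 40.2% of control, against 54.05% for CASP6. MLKL, which carries out necroptosis, was at 6.36 FPKM with shNC and 4.82 FPKM with shKIAA1429, and RIPK3, the kinase that activates it, was not among the listed genes.

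**Figure D4:**
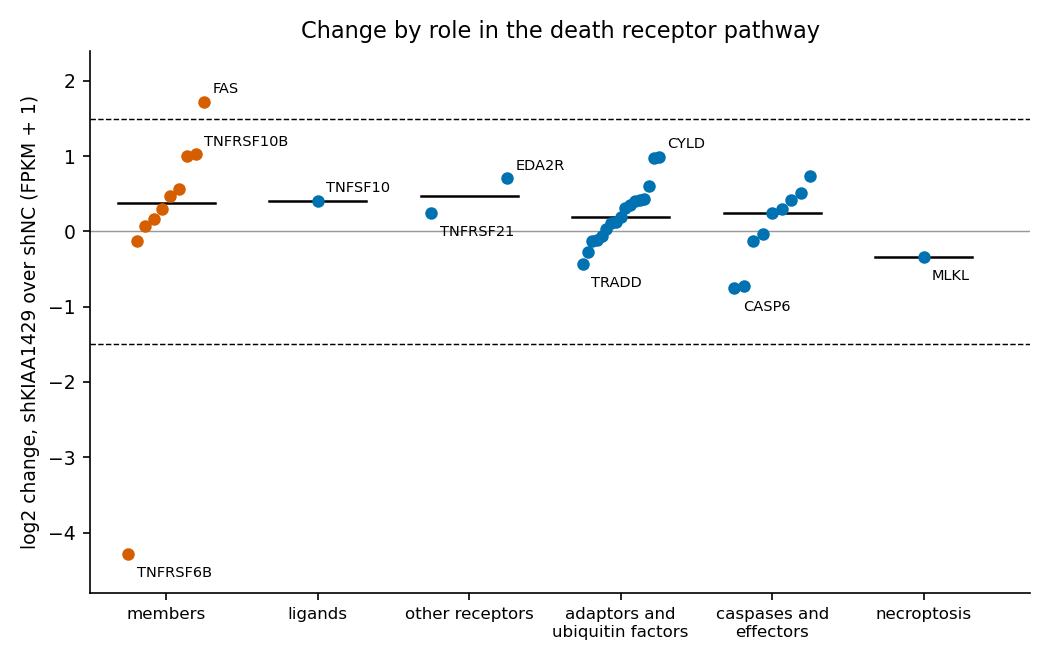
Log2 change of (FPKM + 1), shKIAA1429 over shNC, for the 10 death receptor genes (orange) and the 30 other pathway genes with a mean of at least 1 FPKM (blue), by role, with black bars at the medians and dashed lines at 1.5 and -1.5. Apart from FAS at 1.72 and TNFRSF6B at -4.29, the genes shown lie between the lines.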

How the data were processed

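Poly(A) RNA of ACHN cells was sequenced in strand-specific, paired-end libraries, 1 per group, and groups were taken from the sample labels. The deposited values are FPKM per gene, made by the authors. The submitters' processing notes name cutadapt 1.9, HISAT2 2.0.4 and StringTie 1.3.4d without saying how each was used, and the genome build is not given there. Positions in the files are those of GRCh37. Read numbers cannot be had from FPKM, so depth is unknown and no interval for counting error is given. All 12014 rows are protein-coding and reach 0.5 FPKM in at least 1 library.

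Changes were computed as log2((FPKM + 1) with shKIAA1429 / (FPKM + 1) with shNC) for genes with a mean of at least 1 FPKM. Where a symbol had several rows (7 symbols), the most abundant one was kept. No test was run, since there is 1 library per group. The genes, pathway lists and markers were chosen with earlier results of these data known. The genes named were the 10 death receptor genes, genes that overlap them on the same strand, VIRMA, the highest and lowest of each pathway list, any past 1, and the genes next to FAS in rank. ACTA2, RHOBTB2, TNFRSF10C, CASP10, BIRC3, CASP9, LYZ, LHX1 and PAX8 were added after their values were seen. Some genes that this rule names are not reported here. Exons came from GENCODE 29 (GRCh38) and upstream windows from RefSeq (GRCh38.p14), both used only for annotation and sequence. The alternatives were a pseudocount of 0.1, centring, rescaling to a sum of 1000000 with or without mitochondrial genes, no minimum or one of 5 FPKM, a limit of 1, and summing TNFRSF6B with RTEL1-TNFRSF6B. A sum weighted by transcript length was added after the values were seen, and its log2 change was taken without an added 1. The computation of the log2 change was tested on simulated data that held no values near 0. The other steps were not tested in this way. Python 3.11.15, NumPy 2.4.6, pandas 2.3.3 and matplotlib 3.10.9 were used.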

Additional observations from a re-analysis of the deposited data

How the results depend on the processing

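FAS stayed past 1.5 under its 7 alternatives, with changes from 1.66 to 2.01, and TNFRSF6B stayed below the lower limit, from -7.53 with a pseudocount of 0.1 to -2.62 when summed with RTEL1-TNFRSF6B. The other 8 genes stayed within 1.5, and CASP8 was the gene that changed sign, to 0.05 after rescaling to a sum of 1000000. Some of these settings could not move a value. Another minimum leaves the value of a gene that is kept as it was. Summing TNFRSF6B with RTEL1-TNFRSF6B leaves FAS and the other 8 genes as they were. TNFRSF10B ranged from 0.97 to 1.23 and TNFRSF10A from 0.94 to 1.2973, so both lay on either side of 1 depending on the setting. A limit of 1 gave 2 higher genes in place of 1, by construction. Rescaling moved the median of the 10 genes from 0.38 to 0.60, and that of all genes from 0.06 to 0.24. With mitochondrial genes left out of the sum, these medians were 0.43 and 0.07. The ratio of TNFRSF10A to TNFRSF10B with shKIAA1429 over that with shNC was 1.09 and became 0.978 with 1 added to each FPKM, so its direction depends on that addition. The FPKM sum of TNFRSF6B with RTEL1-TNFRSF6B was -2.62 and ranged from -3.02 to -2.24 under the alternatives planned. The sum weighted by transcript length, an alternative chosen after seeing the data, had no 1 added. It was -0.92, -1.14 and -0.90 with the lengths of RTEL1-TNFRSF6B-201, RTEL1-TNFRSF6B-202 and RTEL1-TNFRSF6B-203, and no longer past the limit. The longer read-through transcript takes more fragments per FPKM, and most of its bases are not shared with TNFRSF6B. The FPKM sum and the weighted sum are thus unlike measures. CFLAR has no value with a minimum of 5 FPKM, since its mean was below it. No paired analysis was possible because each group holds a single library. Unknown depth and the lack of replicates limit every value here.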
